A study of Mus musculus with 9 samples.

Results

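Metalloproteinase genes and the genes of their inhibitors were compared over 3 structures of the embryonic mouse kidney. Members were the genes whose platform symbol was Mmp, Adam, Adamts or Timp followed by a number, which gave 49 of the 12393 genes with a single-symbol probe set: 16 Mmp, 22 Adam, 7 Adamts and 4 Timp genes. The 5 symbols with a letter after the number (Adam1a, Adam1b, Adam26a, Mmp1a and Mmp1b) were left out. Samples were wild-type, strain 129, E14.5 embryos (embryonic day, Theiler stage 22), sex unknown, with 3 Affymetrix MOE430A arrays per structure and no treatment. The renal vesicle, the first epithelial body of a nephron, and the s-shaped body, its later folded stage, were each pools of 20 microdissected structures per array, and the collecting duct, the branched drainage epithelium that the submitters chose as reference, had a pool size of 1. In all groups the RNA had gone through 2 rounds of T7-driven amplification.

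Matrix metalloproteinases (MMPs) are zinc enzymes that cut extracellular matrix and are made as inactive precursors. ADAMs are membrane-anchored relatives that release growth factors, receptors and adhesion proteins from the cell surface, and ADAMTS proteases are secreted relatives that cut proteoglycans and procollagens. TIMPs are secreted inhibitors that bind the active site. In the kidney these enzymes are known for remodelling the matrix around the branching ureteric bud and the forming nephron.

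Levels are given as log2(intensity + 26) after quantile normalization, so the lowest possible level was near 4.70 and the median of every array stood at 7.28. A difference is between group means on this scale, which understates the change of dim genes. A change means a Benjamini-Hochberg adjusted p under 0.05 over the 7984 genes tested, which lay above the array median on 3 arrays or more (limma, two-sided). Of the 49 members 22 passed this filter. The labels do not say whether the 3 samples of a structure came from separate litters, so p-values measure only the spread between these samples, which may be technical.

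The structures were checked against their markers. The 6 measured nephron markers summed to 6893 to 11270 intensity units in renal vesicles, 28490 to 28957 in s-shaped bodies and 1511 to 2430 in duct, and the 9 collecting duct markers to 2803 to 13731, 1156 to 1346 and 32938 to 37173. Single markers departed from these sums. The nephron sum in the s-shaped body was mostly Podxl, at 14.43 ± 0.02 (SD, n = 3). Of the nephron markers 3 were higher in the s-shaped body than in the renal vesicle (Wt1, Podxl and Nphs1) and 3 lower (Lhx1, Pax8 and Wnt4), and Wnt4 was 18.2-fold higher in duct than in s-shaped bodies (adjusted p = 3.1e-07). The duct sum was mostly Krt8 and Krt18, at 14.21 ± 0.15 and 13.50 ± 0.12 in the duct (SD, n = 3). Of 8 tested duct markers 5 were lower in the renal vesicle than in the duct and 2 higher, Calb1 by 32.3-fold (adjusted p = 0.00072) and Wnt11 by 2.92-fold (adjusted p = 0.002). Calb1 measured 12.60, 13.18 and 8.58 in renal vesicle replicates 1, 2 and 3, and Wnt11 8.90, 8.92 and 7.75. The size of both differences thus rests mostly on replicates 1 and 2. Ret and Hoxb7 were close to the array median in the duct (7.32 ± 0.25 and 7.41 ± 0.30). The duct arrays also carried urothelium transcripts, since the 5 measured markers summed to 2705 to 4097 there against 451 to 595 in the renal vesicle and 366 to 534 in the s-shaped body. Trp63 was 27-fold and Upk3a 10.5-fold higher in duct than in renal vesicles (adjusted p = 2.3e-08 and 1.4e-06), whereas Upk2 passed in no comparison and Upk1a and Krt5 did not pass the filter. Renal vesicle replicate 3 stood apart from replicates 1 and 2, with the podocyte gene Podxl at 11.54 against 8.22 and 8.16. The s-shaped body arrays also carried transcripts of other cells. There 12 interstitium markers summed to 25836 to 30768 units against 2098 to 3620 in the renal vesicle and 1076 to 1593 in the duct, and 9 of the 9 tested were higher than in the duct. The 11 endothelium markers summed to 10171 to 11703 against 766 to 1196 and 794 to 1104. Again 9 of 9 tested were higher than in the duct. The 5 measured erythroid markers summed to 19915 to 21811 against 461 to 2538 and 70 to 2445 (3 of 3 tested higher). The erythroid sum in the s-shaped body was mostly Hbb-y, at 14.27 ± 0.08 (SD, n = 3). In the duct Hbb-y reached 11.20 in replicate 2 against 4.78 and 4.93 in replicates 1 and 3. Hba-a1 and Hbb-bh1 did not pass the filter. Of 11 macrophage markers 9 did not pass the filter, among them C1qa (6.17 ± 0.52 in the s-shaped body) and Cd68 (6.24 ± 0.06), while Csf1r reached 11.55 ± 0.12. The macrophage sum was 3485 to 4209 in the s-shaped body, 818 to 1166 in the renal vesicle and 997 to 1040 in the duct. In the s-shaped body this sum was mostly Csf1r. The part of these cells, and of the urothelium transcripts in the duct, in the results was not tested. In these bulk samples, fewer cells of a type and less RNA per cell cannot be told apart.

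**Figure D1:**
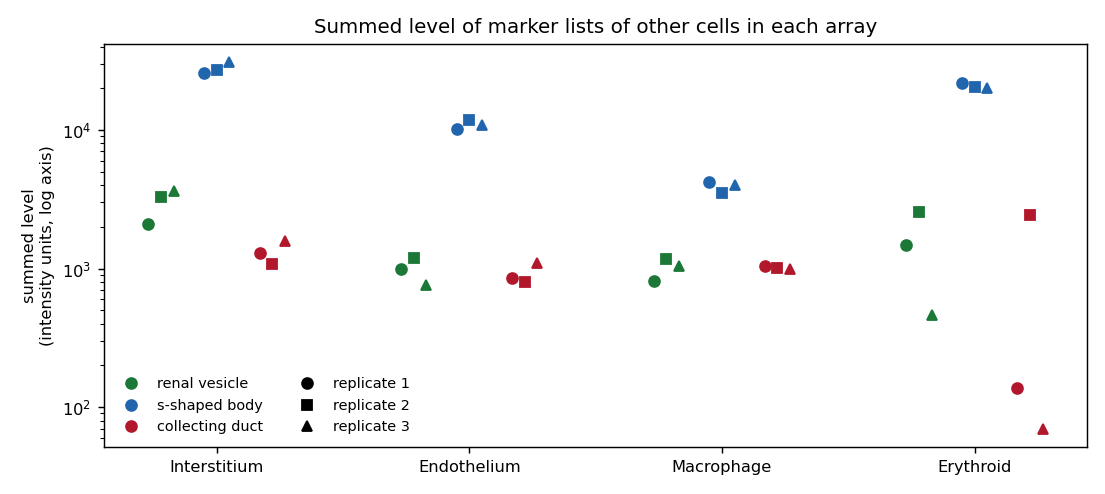
Summed level of 4 marker lists of other cells (intensity units, log axis) in each of the 9 arrays, coloured by structure, with 1 symbol per replicate number. The 3 s-shaped body arrays lie above the other 6 arrays in each list, for example at 10171 to 11703 against 766 to 1196 for endothelium in the renal vesicle.

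The members split by structure in an uneven way. Without any filter on intensity, so that all 49 members entered, 14 were higher in the s-shaped body than in the duct and 2 lower, where 11.6% and 10.8% of 12393 genes were. Against the renal vesicle 10 members were higher in the s-shaped body and 0 lower (12.5% and 11.5% of all genes). In the renal vesicle 4 members were higher than in the duct and 0 lower (9.68% and 10.3% of all genes). The median difference of the 49 members was 0.16, 0.12 and -0.03 in these comparisons, against -0.04, -0.02 and -0.02 for all genes. The comparisons are not independent, since each pair of them shares the arrays of a structure. Both comparisons with more members higher in the s-shaped body rest on the same s-shaped body arrays.

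Among the 22 members above the filter, 13 differed over the 3 structures by the moderated F test, where 49.5% of all genes tested did. Against the duct, 13 changed in the s-shaped body (32.8% of all genes tested did), 12 of them higher and 1 lower (16.9% and 15.9% of all genes). Between the nephron stages 10 changed (36.3%), all 10 higher in the s-shaped body (18.5% of all genes were higher and 17.8% lower). The renal vesicle differed from the duct in 3 (31.5%), again all higher (15.6% higher and 15.9% lower over all genes). The arrays of both structures did not overlap for 14, 13 and 6 of the 22 members in these comparisons, and for 43.9%, 52.9% and 43.3% of all genes tested. For 9 members (Mmp9, Mmp14, Mmp23, Adam9, Adam12, Adam19, Adamts5, Timp2 and Timp3) the s-shaped body was above both other structures. In them the renal vesicle did not pass as higher than the duct, and 8.67% of all genes tested had this pattern. Timp1 was also highest in the s-shaped body, in a stepwise pattern counted apart, which 2.12% of all genes tested had. No member passed as higher in the renal vesicle, or in the duct, than in both other structures. These patterns held for 8.19% and 8.28% of all genes. By mean level alone Mmp2 was highest in the renal vesicle and Mmp11 in the duct. Stepwise genes were not taken out of these last patterns, so their shares do not compare directly with 8.67%. The 5 members Mmp9, Adam12, Adam19, Adamts5 and Timp3 passed the filter in only 3 or 4 arrays, the s-shaped body arrays among them, so their passing and their difference are not separate facts. Of the interstitium and endothelium markers 8 of 9 and 9 of 9 tested were also higher there than in the renal vesicle, and their part in the members' differences was not tested.

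**Figure D2:**
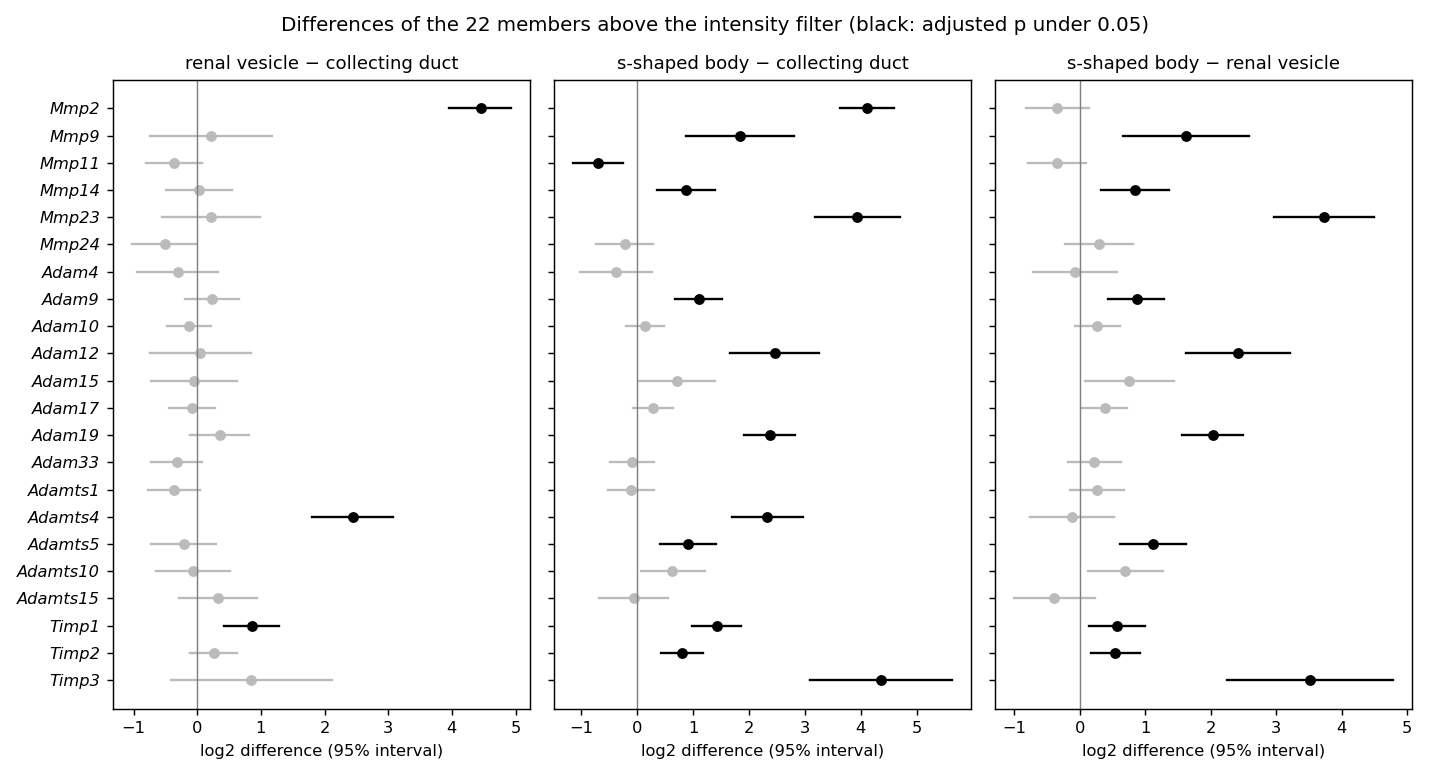
Log2 difference with its 95% interval (moderated, n = 3 arrays per structure) for each of the 22 members above the filter, in 3 comparisons, with black points for an adjusted p under 0.05. In the comparison of s-shaped body with renal vesicle 10 points are black and all of them lie to the right of 0.

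The gelatinase gene Mmp2, whose enzyme digests basement membrane collagen and denatured collagens, had the widest gap between nephron and duct among the Mmp genes. Its levels were 11.42, 11.41 and 11.69 in the renal vesicle, 11.05, 11.10 and 11.36 in the s-shaped body, and 7.08, 6.59 and 7.51 in the collecting duct. The nephron arrays did not overlap with the duct arrays, 2 of which lay below the array median. Mmp2 was 21.8-fold higher in renal vesicles than in duct (log2 difference 4.45, SE 0.22, adjusted p = 3.5e-08, limma) and 17.3-fold higher in the s-shaped body (4.11, SE 0.22, adjusted p = 4.5e-08). The s-shaped body stood 0.34 below the renal vesicle (difference -0.34, 95% interval -0.82 to 0.15, adjusted p = 0.27). The second probe set of Mmp2 also passed for both, with smaller differences from the duct (3.11 and 2.73). Of 9 tested interstitium markers 9 were also higher in the s-shaped body than in the duct. In the renal vesicle 6 were higher, Col1a1 and Pdgfra did not pass, and Postn was 4.19-fold lower than in the duct (adjusted p = 0.00089).

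Mmp9, the other gelatinase, followed another course. It stood at 5.93, 6.22 and 7.79 in the renal vesicle, 7.58, 8.30 and 8.91 in the s-shaped body, and 6.31, 6.43 and 6.54 in the duct. Renal vesicle replicate 3 reached into the range of the s-shaped body, and all duct arrays lay below it. Mmp9 was 3.57-fold higher in s-shaped bodies than in duct (1.84, SE 0.44, adjusted p = 0.0066) and 3.07-fold higher than in the renal vesicle (1.62, SE 0.44, adjusted p = 0.013). Without renal vesicle replicate 3 the latter difference was 2.19 (adjusted p = 0.00052), and it missed the threshold without replicate 1 (1.25, adjusted p = 0.06) or replicate 2 of the renal vesicle (1.40, adjusted p = 0.053) and without s-shaped body replicate 3 (1.29, adjusted p = 0.065). The 2 macrophage markers above the filter, Csf1r and Adgre1, were also higher in the s-shaped body than in the renal vesicle. Against the duct Csf1r was higher there too, whereas Adgre1 did not pass (0.19, adjusted p = 0.49). Ptprc, a marker of the same list below the filter, went the other way, at 7.74 ± 0.60 in the renal vesicle and 6.65 ± 0.26 in the s-shaped body.

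The membrane-anchored MMPs Mmp23 and Mmp14 were higher in the s-shaped body than in either other structure. Mmp23, whose enzyme is held in the membrane by its N-terminal end, measured 7.78, 7.60 and 9.28 in the renal vesicle, 11.68, 12.07 and 12.09 in the s-shaped body, and 7.95, 7.88 and 8.18 in the duct. The s-shaped body arrays lay above the other 6, and renal vesicle replicate 3 lay between the groups. Mmp23 was 15.4-fold higher in s-shaped bodies than in duct (3.94, SE 0.35, adjusted p = 2.6e-06) and 13.2-fold higher than in the renal vesicle (3.73, SE 0.35, adjusted p = 7.8e-06), or 4.24 without renal vesicle replicate 3. Its second probe set gave smaller differences, 2.12 and 2.54, past the threshold in both cases.

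Mmp14 encodes MT1-MMP, a collagenase of the cell surface that activates the Mmp2 precursor together with Timp2. Its levels were 8.52, 9.07 and 8.81 in the renal vesicle, 9.46, 10.04 and 9.41 in the s-shaped body, and 8.39, 8.82 and 9.11 in the duct. The s-shaped body arrays lay above the others, whereas renal vesicle and duct overlapped (difference 0.03, 95% interval -0.49 to 0.55). Mmp14 was 1.83-fold higher in s-shaped bodies than in duct (0.87, SE 0.24, adjusted p = 0.014) and 1.79-fold higher than in the renal vesicle (0.84, SE 0.24, adjusted p = 0.016). The first call was lost without s-shaped body replicate 2 (0.67, adjusted p = 0.074) or duct replicate 1 (0.67, adjusted p = 0.052), and the second without s-shaped body replicate 2 (0.64, adjusted p = 0.079) or renal vesicle replicate 1 (0.70, adjusted p = 0.071). The dimmer probe set of Mmp14 did not pass the filter and was not tested. Its mean levels were 5.10 for renal vesicles, 5.37 for s-shaped bodies and 5.04 for duct. Of the other membrane-type genes Mmp24 was tested and passed in no comparison (differences -0.51 to 0.29), and Mmp16 and Mmp17 did not pass the filter.

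Mmp11, stromelysin-3, was the single member that was lower in the s-shaped body than in the duct among those above the filter. It measured 7.89, 7.46 and 7.80 in the renal vesicle, 7.17, 7.25 and 7.70 in the s-shaped body, and 8.21, 8.05 and 7.96 in the duct. All values were close to the array median, and the duct arrays lay above the rest. The difference of -0.70 (SE 0.20, adjusted p = 0.019) missed the threshold without s-shaped body replicate 1 (-0.60, adjusted p = 0.074) or 2 (-0.64, adjusted p = 0.07) and without duct replicate 1 (-0.63, adjusted p = 0.059) or 2 (-0.72, adjusted p = 0.05).

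The secreted MMPs of the gene cluster on chromosome 9 were dim in every structure. The 7 members there, Mmp3 and Mmp10 (stromelysins), Mmp7 (matrilysin), Mmp8 and Mmp13 (collagenases), Mmp12 (macrophage elastase) and Mmp20 (enamelysin), had levels of 4.77 to 7.12, so none of them exceeded the array median on any array. Of the 9 Mmp genes elsewhere 6 passed the filter. Their promoters are shown because they share a pair of motifs that no other member with an entry held together. In the RefSeq promoter table (GRCm38.p6, 250 bases before to 50 after each annotated start) 6 of these 7 genes held both motifs. These were the AP-1 motif TGANTCA, which reads the same on both strands, and the TATA motif TATAAA on either strand. Of 32851 promoters 1.5% held both. That share counts single promoters of genes at all levels. The members were counted as genes, over all their promoters, so the figures do not compare directly. Mmp7 and Mmp12 each had another promoter with neither motif. Mmp8 had no AP-1 motif in its window. The stretches below run from 110 bases before the start to 10 after it, 5′ to 3′, with both motifs in capitals.
Mmp13 (chr9:7272404-7272523, plus strand): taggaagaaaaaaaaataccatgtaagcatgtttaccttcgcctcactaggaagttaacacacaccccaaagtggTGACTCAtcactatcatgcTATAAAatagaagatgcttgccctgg
Mmp12 (chr9:7347264-7347383, plus strand): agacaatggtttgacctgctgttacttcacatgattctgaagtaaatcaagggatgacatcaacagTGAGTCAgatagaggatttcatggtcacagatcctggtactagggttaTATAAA
Mmp3 (chr9:7445712-7445831, plus strand): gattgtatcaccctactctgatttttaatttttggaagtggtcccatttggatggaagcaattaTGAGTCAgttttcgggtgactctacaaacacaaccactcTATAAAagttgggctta
Mmp10 (chr9:7502232-7502351, plus strand): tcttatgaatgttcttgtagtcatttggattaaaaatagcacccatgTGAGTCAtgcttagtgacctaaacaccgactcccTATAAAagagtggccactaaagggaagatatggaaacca
Mmp20 (chr9:7628121-7628240, plus strand): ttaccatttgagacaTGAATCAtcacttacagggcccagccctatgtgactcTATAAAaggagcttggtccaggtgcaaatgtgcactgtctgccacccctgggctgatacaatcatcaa
Mmp7 (chr9:7691980-7692099, plus strand): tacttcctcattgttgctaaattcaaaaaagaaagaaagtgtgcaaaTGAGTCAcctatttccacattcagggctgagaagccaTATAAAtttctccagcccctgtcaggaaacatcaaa
In all 6 stretches the AP-1 motif precedes the TATA motif, which begins before the start in 5 of them and just past it in Mmp12.

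AP-1 consists of Fos and Jun family proteins, whose genes differed in level. Fos stood at 14.08 ± 0.03 in the duct, 12.07 ± 0.16 in the renal vesicle and 11.54 ± 0.93 in the s-shaped body, and Jun at 12.65 ± 0.12, 10.56 ± 0.10 and 10.10 ± 0.34 (SD, n = 3). Fosb was dimmer (8.79 ± 0.36, 7.63 ± 0.17 and 6.95 ± 0.39), and Junb, above the array median on 1 array, did not pass the filter. Of 9 tested immediate-early genes 9 were lower in the renal vesicle than in the duct, and 7 were lower and 1 higher in the s-shaped body. The cluster genes were below the array median in the duct as in the other structures. A link between their levels and AP-1 was not tested. Without a filter Mmp3 was the 1 cluster gene that passed in any comparison, at -0.73 (SE 0.24, adjusted p = 0.048) for s-shaped body against duct, with levels of 5.85 to 6.50 and 6.81 to 7.12.

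The members above the filter that had a promoter entry held another motif. Mmp2, Mmp9 and Adamts4 were among those above the filter without an entry. A gene was counted if any of its listed promoters held the motif. Of the 26 members with an entry in the promoter table, all 12 that passed the filter held a GC box (GGGCGG on either strand). Of the 14 that did not pass, 7 of them chromosome 9 cluster genes, 1 held a GC box (Adam8). Adam19 and Mmp23 also had listed promoters without a GC box. For all genes of the array with an entry, 71.6% of 6494 genes above the filter and 40.9% of 3388 below it held this motif, so the same contrast ran through the array. AP-1 motifs were found in 1 of the 12 (Adam19) and 7 of the 14, against 6.24% and 10.5% of all genes. TATA motifs were found in 1 (Adamts1) and 7, against 8.65% and 18.2%. The promoters of the inhibitor genes Timp1, Timp2 and Timp3 and of Mmp14 are shown over the same stretch, with GC boxes in capitals.
Timp1 (chrX:20870056-20870175, plus strand): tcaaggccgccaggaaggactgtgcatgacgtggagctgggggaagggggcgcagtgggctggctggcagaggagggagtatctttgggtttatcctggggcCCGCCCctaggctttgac
Timp2 (chr11:118355402-118355521, minus strand): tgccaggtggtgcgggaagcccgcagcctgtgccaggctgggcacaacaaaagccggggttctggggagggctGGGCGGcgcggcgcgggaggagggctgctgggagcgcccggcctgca
Timp3 (chr10:86300302-86300421, plus strand): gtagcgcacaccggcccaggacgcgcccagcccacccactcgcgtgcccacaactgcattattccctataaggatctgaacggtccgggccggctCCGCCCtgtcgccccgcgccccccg
Mmp14 (chr14:54431488-54431607, plus strand): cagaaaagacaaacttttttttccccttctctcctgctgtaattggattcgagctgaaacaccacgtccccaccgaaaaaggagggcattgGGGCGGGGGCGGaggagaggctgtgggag
Each of these stretches has its GC box within the bases just before the start.

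**Figure D3:**
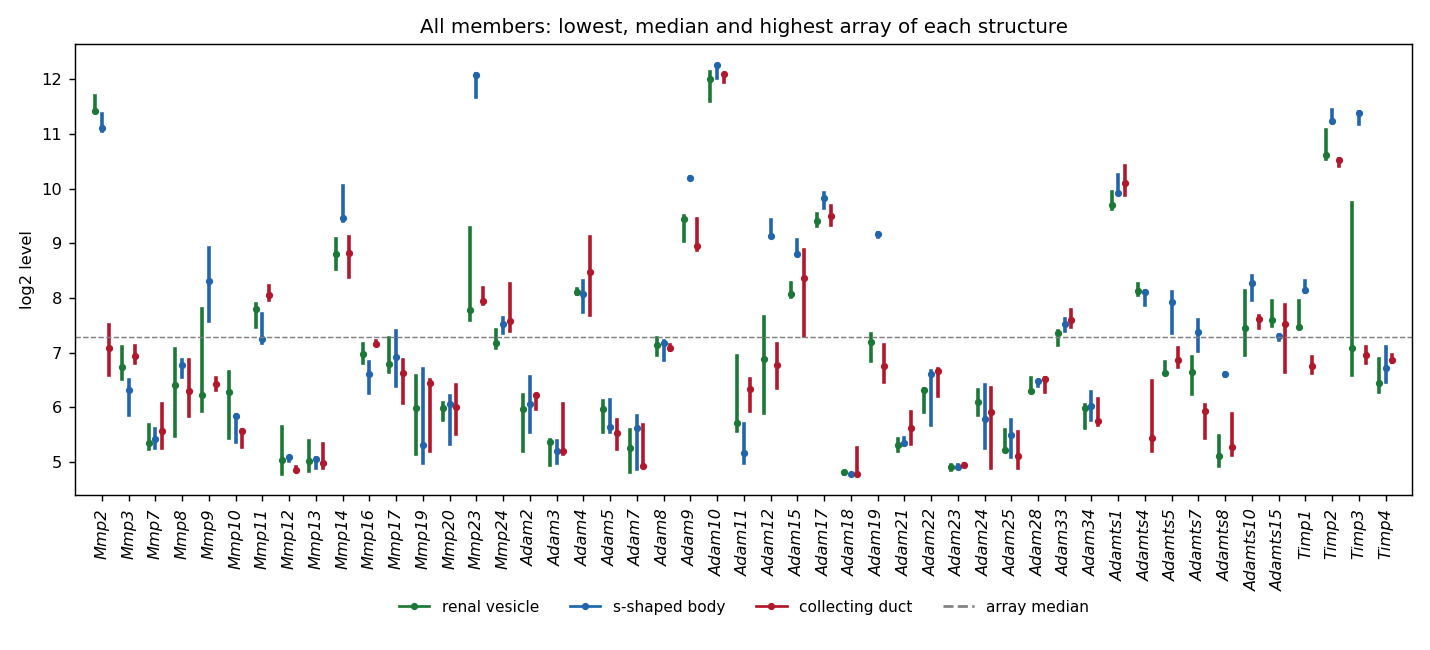
Log2 level of all 49 members, with a line from the lowest to the highest array of each structure and a point at the median array (n = 3), and the array median of 7.28 as a dashed line. The chromosome 9 genes Mmp3, Mmp7, Mmp8, Mmp10, Mmp12, Mmp13 and Mmp20 stay below the dashed line in all structures, and levels of different genes come from different probe sets and are not comparable with each other.

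Of the ADAMs, the main sheddase genes were bright in all 9 arrays and passed in no comparison. Adam10, whose enzyme makes the first cut of ligand-bound Notch receptors, measured 11.60, 12.01 and 12.13 in the renal vesicle, 12.27, 12.02 and 12.27 in the s-shaped body, and 11.95, 12.09 and 12.10 in the duct. The groups overlapped, and the intervals of the differences were -0.48 to 0.21, -0.20 to 0.48 and -0.07 to 0.62 for renal vesicle minus duct, s-shaped body minus duct and s-shaped body minus renal vesicle. Adam17, which releases TNF and ligands of the EGF receptor, measured 9.41, 9.31 and 9.53, then 9.91, 9.83 and 9.64, then 9.49, 9.68 and 9.33 in the same order of structures. Its largest difference was 0.38 for s-shaped body against renal vesicle (95% interval 0.02 to 0.73, adjusted p = 0.097). Its s-shaped body arrays lay above the renal vesicle arrays, at 1.3-fold, without passing the threshold.

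The ADAM genes that changed were those of Adam9 and of the meltrins Adam12 and Adam19, and all were highest in the s-shaped body. Adam12 (meltrin alpha), known from muscle and mesenchyme, measured 7.65, 5.89 and 6.88 in the renal vesicle, 9.14, 9.42 and 9.11 in the s-shaped body, and 7.16, 6.77 and 6.35 in the duct. It was 5.51-fold higher in s-shaped bodies than in duct (2.46, SE 0.37, adjusted p = 0.00021) and 5.33-fold higher than in the renal vesicle (2.41, SE 0.37, adjusted p = 0.00029). Both differences rest on the brighter probe set of Adam12. The dimmer one did not pass the filter and was not tested. It showed no such rise, with mean levels of 6.30 for s-shaped bodies, 6.34 for renal vesicles and 6.43 for duct. Adam19 (meltrin beta), a neuregulin sheddase, measured 6.85, 7.20 and 7.34, then 9.19, 9.17 and 9.12, then 6.47, 6.76 and 7.13. Its s-shaped body arrays agreed within 0.03 (SD) and lay apart from all others, with a 5.19-fold difference from the duct (2.37, SE 0.21, adjusted p = 2.5e-06) and a 4.08-fold difference from the renal vesicle (2.03, SE 0.21, adjusted p = 1.6e-05). The dimmer probe set of Adam19 did not pass the filter and was not tested. Its mean levels were 5.36 for renal vesicles, 5.75 for s-shaped bodies and 5.29 for duct. Adam9, a broadly expressed sheddase, measured 9.04, 9.44 and 9.50, then 10.17, 10.22 and 10.20, then 9.45, 8.95 and 8.88. It was 2.15-fold above the duct (1.10, SE 0.19, adjusted p = 0.00079) and 1.82-fold above the renal vesicle (0.87, SE 0.19, adjusted p = 0.004).

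For Adam12, Adam19 and Adam9 renal vesicle and duct overlapped, and no difference between them passed. The interval of that difference was -0.75 to 0.85 for Adam12, -0.11 to 0.81 for Adam19 and -0.19 to 0.66 for Adam9. The remaining tested ADAM genes were Adam4, Adam15 and Adam33, none of which passed. Adam15 stood at 8.79, 9.06 and 8.80 in the s-shaped body, above 8.28, 8.01 and 8.08 in the renal vesicle (0.76, SE 0.31, adjusted p = 0.077), while its duct arrays ranged from 7.30 to 8.87. That call was made without duct replicate 1 (adjusted p = 0.007) or duct replicate 3 (adjusted p = 0.024). Its probe set is of the type that may also bind related transcripts. The 14 ADAM members below the filter included the egg- and sperm-related Adam2, Adam3, Adam18 and Adam24 and the neural Adam11, Adam22 and Adam23, whose proteins lack protease activity.

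**Figure D4:**
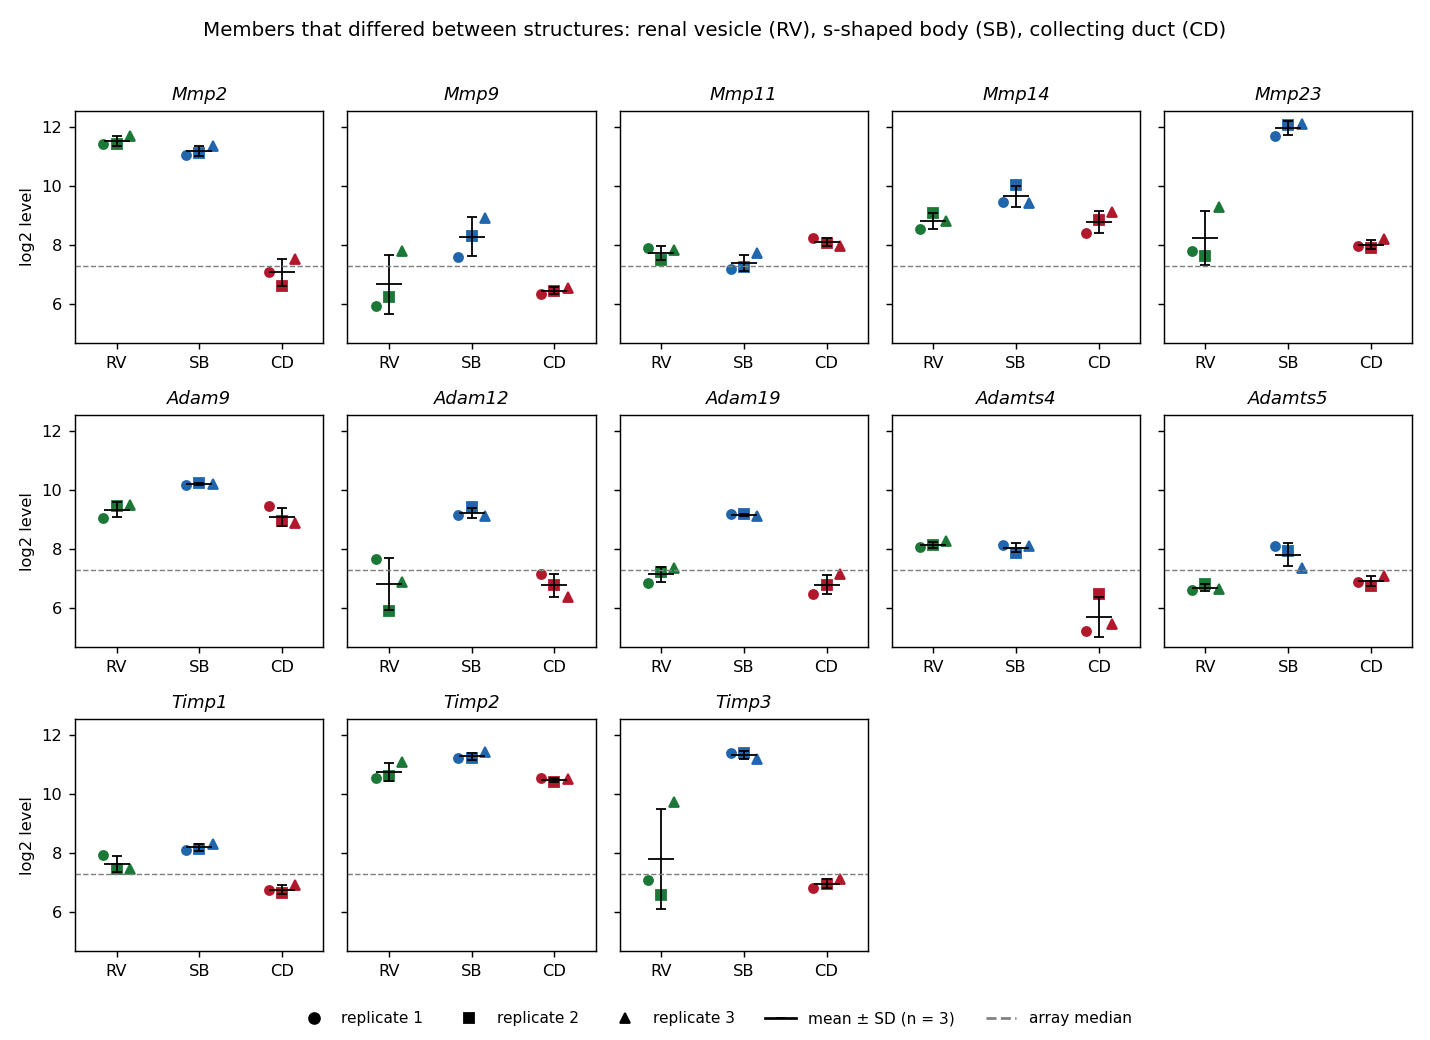
Log2 level in each array (points, 1 symbol per replicate) with mean ± SD (black, n = 3) for the 13 members that differed over renal vesicle (RV), s-shaped body (SB) and collecting duct (CD), with the array median dashed. Mmp2 and Adamts4 are high in both nephron structures, and Timp3 and Mmp23 are high in the s-shaped body with renal vesicle replicate 3 in between (9.73 and 9.28).

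Among the ADAMTS genes the aggrecanases Adamts4 and Adamts5, which cut aggrecan and versican, took different courses. Adamts4 measured 8.06, 8.12 and 8.25 in the renal vesicle, 8.12, 7.87 and 8.11 in the s-shaped body, and 5.20, 6.48 and 5.43 in the duct. Both nephron structures lay above the duct without overlap, at 5.44-fold (2.44, SE 0.29, adjusted p = 5.3e-05) and 5.04-fold (2.33, SE 0.29, adjusted p = 4.9e-05), and they did not differ past the threshold from each other (-0.11, 95% interval -0.75 to 0.53). The duct arrays lay near the floor, and with a pseudocount of 82 the differences from the duct were 1.62 and 1.53, still past the threshold. Mmp2 and Adamts4 were the 2 members with this pattern, which 3.14% of all genes tested had. Adamts5 measured 6.61, 6.82 and 6.62, then 8.11, 7.92 and 7.36, then 6.87, 6.74 and 7.08. Here only the s-shaped body was set apart, at 1.88-fold above the duct (0.91, SE 0.23, adjusted p = 0.0098) and 2.17-fold above the renal vesicle (1.12, SE 0.23, adjusted p = 0.0026). The size depended on the probe set, since the other probe set gave 2.99 and 3.01 for the same comparisons. That probe set was dimmer in renal vesicle and duct (means 5.65 and 5.68 against 6.68 and 6.89) and brighter in the s-shaped body (8.66 against 7.80).

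Adamts1, a versican-cutting protease whose loss in mice disturbs kidney development, was bright in all arrays (9.63 to 9.94, 9.90 to 10.25 and 9.88 to 10.42 in the same order) and passed in no comparison. Adamts10, known for its link to fibrillin, measured 8.40, 7.96 and 8.28 in the s-shaped body and 7.62, 7.45 and 7.67 in the duct, a difference of 0.63 (SE 0.26) that missed the threshold (adjusted p = 0.09). It passed without renal vesicle replicate 1 (adjusted p = 0.039). Against the renal vesicle, where replicate 1 stood at 8.12 and the others at 6.95 and 7.45, the difference was 0.70 (adjusted p = 0.056), and it passed without that replicate (1.00, adjusted p = 0.008). Adamts15 differed by -0.39 to 0.33 and passed nowhere. Adamts7 and Adamts8 did not pass the filter. Adamts8 stood at 6.61, 6.62 and 6.58 in the s-shaped body, below the array median, against 4.92 to 5.47 and 5.13 to 5.87 in the renal vesicle and duct. Without the filter both were higher in the s-shaped body than in the duct, Adamts7 by 1.53 (SE 0.25, adjusted p = 0.0012) and Adamts8 by 1.18 (SE 0.22, adjusted p = 0.0027).

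The inhibitor genes Timp1, Timp2 and Timp3 were all higher in the s-shaped body than in either other structure, by amounts that differed widely. Timp3, whose protein binds to the matrix and inhibits ADAM17 and the aggrecanases as well as MMPs, measured 7.09, 6.59 and 9.73 in the renal vesicle, 11.38, 11.41 and 11.18 in the s-shaped body, and 6.80, 6.95 and 7.11 in the duct. Renal vesicle replicate 3 lay far above its fellow replicates, as it did for Podxl, and the s-shaped body arrays lay above all others. Timp3 was 20.7-fold higher in s-shaped bodies than in duct (4.37, SE 0.58, adjusted p = 8.6e-05) and 11.5-fold higher than in the renal vesicle (3.52, SE 0.58, adjusted p = 0.00057). Without renal vesicle replicate 3 the latter difference was 4.47 (adjusted p = 1.6e-07), without replicate 2 it was 2.91 (adjusted p = 0.0023), and without replicate 3 the difference of renal vesicle from duct went from 0.85 (adjusted p = 0.3) to -0.12 (adjusted p = 0.71). The other 2 probe sets of Timp3 above the filter gave 3.97 and 3.44 for s-shaped body against duct. A further probe set of Timp3 did not pass the filter and was not tested. It showed no such rise, with mean levels of 6.72 for renal vesicles, 7.05 for s-shaped bodies and 6.99 for duct.

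Timp1, an inhibitor of most secreted MMPs, was the 1 member that differed between all 3 structures, a stepwise pattern that 2.12% of all genes tested had. It measured 7.94, 7.47 and 7.44 in the renal vesicle, 8.10, 8.15 and 8.31 in the s-shaped body, and 6.75, 6.63 and 6.91 in the duct. The 3 groups did not overlap, and the duct arrays lay below the array median. Timp1 was 1.81-fold higher in renal vesicles than in duct (0.86, SE 0.20, adjusted p = 0.006) and 2.69-fold higher in the s-shaped body (1.43, SE 0.20, adjusted p = 0.00012). The step from renal vesicle to s-shaped body was small (0.57, SE 0.20, adjusted p = 0.041) and missed the threshold without renal vesicle replicate 2 (adjusted p = 0.14) or 3 (adjusted p = 0.11), without s-shaped body replicate 1 (adjusted p = 0.067), 2 (adjusted p = 0.089) or 3 (adjusted p = 0.12), and without the intensity filter (adjusted p = 0.065).

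Timp2, which inhibits MMPs and also takes part in the activation of the Mmp2 precursor at the cell surface, was bright in all arrays. It measured 10.55, 10.62 and 11.08 in the renal vesicle, 11.22, 11.23 and 11.43 in the s-shaped body, and 10.55, 10.41 and 10.52 in the duct. The s-shaped body arrays lay above the rest by a small margin, at 1.74-fold over the duct (0.80, SE 0.17, adjusted p = 0.0031) and 1.46-fold over the renal vesicle (0.54, SE 0.17, adjusted p = 0.026). The latter missed the threshold under median centring (0.36, adjusted p = 0.13), with the next brightest probe set (0.54, adjusted p = 0.085), and without renal vesicle replicate 1 (adjusted p = 0.11) or 2 (adjusted p = 0.11) or s-shaped body replicate 2 (adjusted p = 0.056) or 3 (adjusted p = 0.096). The other probe sets of Timp2 above the filter gave 1.11 and 0.82 for s-shaped body against duct. Among its probe sets below the filter, which were not tested, the brightest was lowest in the s-shaped body. Its mean levels were 7.24 for renal vesicles, 6.77 for s-shaped bodies and 6.96 for duct. The dimmer ones had means of 5.76, 6.06 and 5.77, and of 4.90, 4.87 and 4.86, in that order. Timp4 did not pass the filter, with levels of 6.27 to 6.88, 6.47 to 7.10 and 6.82 to 6.96 in the same order of structures.

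Among regulators and activators of these enzymes, a list of 30 genes of which 25 were measured and 18 tested, 8 were higher in the s-shaped body than in the duct and 4 lower, 8 higher and 1 lower than in the renal vesicle, and 4 higher and 4 lower in the renal vesicle than in the duct. Over all genes tested the shares were 16.9% and 15.9%, 18.5% and 17.8%, and 15.6% and 15.9% in that order. The median differences were 0.32, 0.34 and -0.04. Reck, a membrane-anchored inhibitor of MMPs, measured 9.45, 9.67 and 10.03 in the renal vesicle, 11.13, 10.52 and 10.92 in the s-shaped body, and 8.57, 8.75 and 8.31 in the duct. Its groups did not overlap, and it was 4.96-fold higher in s-shaped bodies than in duct (2.31, SE 0.21, adjusted p = 3.6e-06). Plat, tissue plasminogen activator, whose product plasmin can activate MMP precursors, measured 10.16, 10.29 and 11.56, then 12.72, 12.76 and 12.97, then 6.22, 6.39 and 6.90. This was a 79.6-fold difference between s-shaped body and duct (6.31, SE 0.32, adjusted p = 2.7e-08) and an 18-fold one between renal vesicle and duct (4.17, SE 0.32, adjusted p = 1.3e-06).

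Of 5 tested tetraspanin genes whose proteins carry ADAM10, Tspan15 passed in no comparison, Tspan14 was lower in both nephron structures than in the duct (-0.88 and -0.72, adjusted p = 0.013 and 0.032), and Tspan33 was lower in the s-shaped body than in the duct (-0.66, adjusted p = 0.046) without passing the F test. Tspan5, a tetraspanin that carries ADAM10, measured 9.34, 9.08 and 10.07 in the renal vesicle, 10.70, 11.52 and 11.37 in the s-shaped body, and 8.28, 8.19 and 7.82 in the duct, 8.58-fold higher in s-shaped bodies than in duct (3.10, SE 0.28, adjusted p = 2.6e-06). Tspan17, of the same group, was lower in level (7.67 to 7.94 in the s-shaped body) and 2.84-fold above the renal vesicle there (SE of the log2 difference 0.22, adjusted p = 0.00022). Rhbdf1, whose protein iRhom1 escorts ADAM17 to the cell surface, was highest in the duct, at 9.77, 10.09 and 9.88 in the renal vesicle, 11.06, 11.25 and 11.29 in the s-shaped body, and 11.88, 11.65 and 11.98 in the duct. It was 3.79-fold lower in the renal vesicle than in the duct (-1.92, SE 0.16, adjusted p = 2.4e-06), and between the nephron stages the s-shaped body was 2.45-fold above the renal vesicle (1.29, SE 0.16, adjusted p = 6e-05). Pcsk6, a convertase that cleaves proproteins, was 4.18-fold higher in s-shaped bodies than in duct (2.06, SE 0.31, adjusted p = 0.00022).

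**Figure D5:**
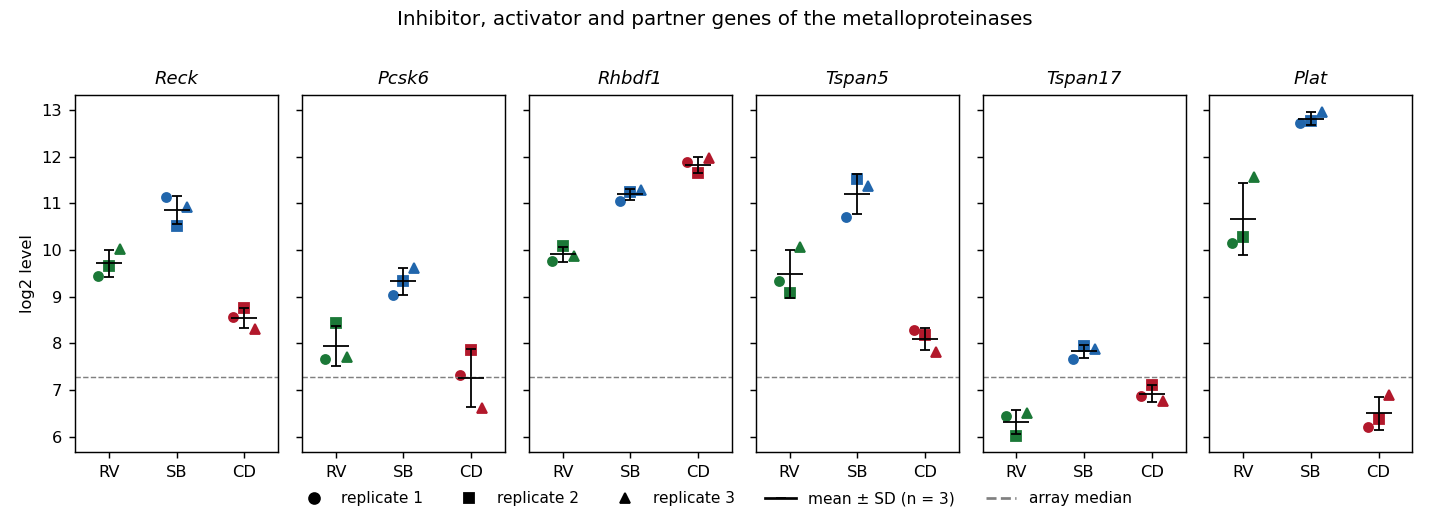
Log2 level in each array (points, 1 symbol per replicate) with mean ± SD (black, n = 3) for 6 regulator genes in renal vesicle (RV, green), s-shaped body (SB, blue) and collecting duct (CD, red), with the array median dashed. Plat is lowest in the collecting duct, at 6.22 to 6.90, and Rhbdf1 is highest there, at 11.65 to 11.98.

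Of 29 genes whose proteins ADAMs are known to shed, 26 were measured and 22 tested. In the renal vesicle 6 were higher and 10 lower than in the duct, in the s-shaped body 7 were higher and 5 lower than in the duct, and 7 higher and 6 lower than in the renal vesicle, with median differences of -0.65, 0.21 and 0.34. The shares over all genes tested were 15.6% and 15.9%, 16.9% and 15.9%, and 18.5% and 17.8%. The cadherins, both cut by ADAM10, were opposed. Cdh1 (E-cadherin) stood at 11.79, 11.90 and 12.04 in the duct against 9.65, 10.16 and 9.61 in the renal vesicle and 6.71, 5.96 and 5.85 in the s-shaped body, while Cdh2 (N-cadherin) stood at 4.86, 4.92 and 4.93 in the duct against 9.86 to 10.12 in the renal vesicle and 8.72, 8.05 and 8.46 in the s-shaped body. The difference between s-shaped body and duct was -5.74 for Cdh1 (SE 0.24, adjusted p = 5.4e-09) and 3.51 for Cdh2 (SE 0.20, adjusted p = 6.7e-08).

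The Notch ligand genes Dll1 and Jag1 were highest in the renal vesicle. Dll1 was 7.99-fold above the duct (SE of the log2 difference 0.18, adjusted p = 1.8e-07) and Jag1 8.78-fold (SE 0.28, adjusted p = 4.6e-06), and in the s-shaped body they stood 2.09 and 2.26 below the renal vesicle (differences -2.09 and -2.26, adjusted p = 3.9e-06 and 6.5e-05). Egf, a growth factor precursor, measured 10.57, 10.22 and 9.84 in the s-shaped body against 7.30 to 7.96 in the other arrays, a 6.47-fold difference from the duct (2.69, SE 0.22, adjusted p = 1e-06). Sdc4, a cell surface proteoglycan, was 3.7-fold higher in s-shaped bodies than in renal vesicles (1.89, SE 0.18, adjusted p = 9.1e-06).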

How the data were processed

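Transcripts were measured on 9 Affymetrix MOE430A arrays, 3 for each of 3 structures. The deposited values were linear intensity, 1 per probe set and array. Per the submitters' processing notes GCOS was used, and its version and algorithm are not given in the sources used here. Array means without the extremes lay at 500.2 to 500.3, so the arrays had been scaled before deposit, and medians lay at 112.2 to 144.8. Arrays give no counts, so their number limits the precision. Platform annotation gave 20380 of 22690 probe sets (64 controls) a single symbol, for 12393 genes, and all 49 members were found in a RefSeq table of GRCm38.p6.

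A pseudocount of 26 (20th percentile) was added, log2 taken and the arrays quantile normalized. Each gene was represented by its probe set with the highest mean, then kept if above the array median in at least 3 arrays (7984 genes). limma 3.58.1 in R 4.3.3 (lmFit, eBayes with trend, 6 residual degrees of freedom) tested all 9 arrays with no covariates, and p-values were adjusted by Benjamini-Hochberg within each comparison. The procedure was tested on simulated data. Second probe sets were tested in a fit over all probe sets above the filter.

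Members called in any comparison and a set of Mmp, Adam and Timp genes named whatever their values are given array by array, and up to 6 genes of each of the regulator and shed-protein lists with the smallest adjusted p. Members, lists and tests were chosen with earlier results of these data known. The TATA and GC box motifs, and the additional genes Adam15, Adamts1, Adamts7, Adamts8, Adamts10, Mmp3, Tspan14, Tspan15 and Tspan33, were chosen after their values were seen. Marker lists covered nephron, collecting duct, urothelium, interstitium, endothelium, macrophage, erythroid and immediate-early genes. Promoters came from RefSeq (26 of 49 members matched). Alternatives were other pseudocounts, normalizations, filters, probe sets, variance models, a fit of the compared structures only, a 2-fold minimum, a block on the replicate number and the omission of single arrays.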

Additional observations from a re-analysis of the deposited data

How the results depend on the processing

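The comparisons called 3 members in the renal vesicle and 13 in the s-shaped body against the duct, 10 in the s-shaped body against the renal vesicle, and 13 by the F test. With array weights (estimated gene by gene) renal vesicle against duct gave 6 calls (4 higher, 2 lower), while the share of all genes called went to 43%. A filter at 6 arrays, which left 17 members, gave 8, 5 and 8 calls for s-shaped body against duct, s-shaped body against renal vesicle and the F test (29.4%, 35.2% and 47.5% of all genes), and the next brightest probe set, with 15 members, also gave 8, 5 and 8 (28.8%, 32.6% and 45%). A 2-fold minimum gave 6 and 4 calls in the 2 s-shaped body comparisons (8.42% and 5.59%). Leaving out each array in turn gave 3 to 4, 11 to 14, 7 to 11 and 11 to 14 calls. Over 22 alternatives and 66 single differences, 1357 of 1416 values kept their side of the threshold, 38 lost it and 21 gained it. Of the 1357, 35 changed sign, all below the threshold in both settings, and 0 values past it changed sign. The causes were not tested. Median centring moved the median of all genes to 0.11, -0.02 and -0.11, against 0.01, -0.03 and -0.03. Same-numbered arrays of different structures had deviation correlations of -0.04 to 0.16, and differently numbered arrays of -0.16 to 0.15. The range was -0.03 to 0.16 for number 1, -0.04 to -0.02 for number 2 and 0.12 to 0.13 for number 3. The numbers were not taken to pair samples, and the replicate block gave 3, 14, 10 and 14 calls. Not every array correlated best with its own number. The deposited values carried no detection calls used here, so dim members have levels near background whose differences are understated.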
